A study of Mus musculus with 10 samples.

Results

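Cpt1a, Acaa2, Ppara and Pex11a are the 4 genes of fatty acid oxidation and peroxisomes among the 46 genes whose array probe carries a RefSeq transcript identifier. They were taken as the probes whose identifier belongs to one of these genes, which gave 1 probe per gene with 10 spots on each array. The data come from 10 microarrays read in one colour, hybridised with RNA of extracellular vesicles, the membrane-bound particles that cells release. The vesicles came from whole brains of adult male C57BL/6J mice that breathed either ethanol vapor or room air for 8 h per day on 5 days per week over 4 weeks, with brains taken right after the last exposure day. There were 5 arrays of the ethanol group, called CIE for chronic intermittent ethanol, and 5 of the room-air group, called Control. All mice were wild type and no other agent is named. Arrays are named here by group and title number, a count from 1 to 10 that covers Control and CIE together. Whether an array holds RNA of 1 mouse or of a pool is not stated, so the p-values cover the spread from array to array alone, which may be technical.

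Fatty acids are burned in mitochondria by beta-oxidation, which shortens the acyl chain step by step to acetyl-CoA, and very long or branched chains are first shortened in peroxisomes. Cpt1a encodes carnitine palmitoyltransferase 1A of the outer mitochondrial membrane, which makes the acylcarnitines that enter mitochondria and is the main control point of the pathway. Acaa2 encodes the mitochondrial 3-ketoacyl-CoA thiolase of its last step. Ppara encodes a nuclear receptor that fatty acids activate and that switches on genes of both organelles, Cpt1a and Pex11a among them, and Pex11a encodes a peroxisomal membrane protein that acts in the division and proliferation of peroxisomes. In brain, fatty acid oxidation takes place mostly in astrocytes.

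PPAR-alpha, the product of Ppara, binds DNA with a partner receptor at 2 copies of AGGTCA in a row with 1 base between them, so the bases before the start of these genes are shown with such half-sites in view. RefSeq sequences of assembly GRCm38.p6 were held for 3 of the 4 genes. They lie at chr19:3323051-3323300 on the plus strand for Cpt1a, at chr15:85735526-85735775 on the plus strand for Ppara and at chr7:79743132-79743381 on the minus strand for Pex11a. Each is the 250 bases that precede the listed start, 5′ to 3′ along the gene, and capitals mark AGGNCA or its reverse complement TGNCCT.
Cpt1a: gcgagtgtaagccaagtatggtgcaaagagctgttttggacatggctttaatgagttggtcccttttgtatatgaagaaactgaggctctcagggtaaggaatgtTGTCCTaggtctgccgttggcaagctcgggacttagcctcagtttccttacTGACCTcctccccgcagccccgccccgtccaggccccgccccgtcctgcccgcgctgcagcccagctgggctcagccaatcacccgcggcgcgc
Ppara: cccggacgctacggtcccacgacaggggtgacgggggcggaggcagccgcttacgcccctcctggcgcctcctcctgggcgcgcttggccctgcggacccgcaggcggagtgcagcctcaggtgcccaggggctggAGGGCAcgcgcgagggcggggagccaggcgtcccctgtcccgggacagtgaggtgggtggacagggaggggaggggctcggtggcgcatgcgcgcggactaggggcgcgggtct
Pex11a: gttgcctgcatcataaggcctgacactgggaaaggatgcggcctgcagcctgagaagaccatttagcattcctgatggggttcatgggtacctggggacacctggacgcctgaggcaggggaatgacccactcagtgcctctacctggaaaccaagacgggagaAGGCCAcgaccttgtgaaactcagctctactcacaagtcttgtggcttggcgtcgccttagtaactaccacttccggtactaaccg
The exact half-site AGGTCA was found once before Cpt1a, on the opposite strand and starting 94 bases before the start, and not before Ppara or Pex11a. Of the 32851 windows of the same length in the table, 14.0% held it on either strand. The looser AGGNCA, which includes AGGTCA, was found 2 times before Cpt1a and 1 time each before Ppara and Pex11a, and 51.3% of all windows held it. The double element AGGNCANAGGNCA was in none of the 3 windows and in 0.338% of all. GGGCGG, the core of a GC box, was found 2 times each before Cpt1a and Ppara and 0 times before Pex11a, against 32.7% of all windows with a match. GC content was 59.6% before Cpt1a, 76.4% before Ppara and 55.6% before Pex11a, where the median window had 52.4%. These matches describe letters and no binding was measured.

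On each array, 61.6% to 77.0% of 60823 probes had a signal well above background, and the 75th percentile of intensity lay between 69.7 and 192 units. A level below is the log2 intensity minus that percentile of its array, so that 0 marks a signal at the percentile. Levels of different probes cannot be set against each other. Control 7 and CIE 8 stand apart by a control probe for human GAPDH, whose level was 2.80 and 3.49 there and at most 0.47 on the other 8 arrays. By the scan time in the file headers, 8 arrays were read together (5 Control and 3 CIE) and 2 others together (CIE 8 and CIE 10 only). These sets are called slide 1 and slide 2 here. That they are slides is inferred from the shared scan time. Of the markers listed for brain cells, Mbp (listed under oligodendrocytes), Apoe (under astrocytes), and Chgb and Gabrg1 (under neurons) had a named and tested probe. How specific each is to its listed cell type was not tested. None of these 4 passed in limma, and their log2 differences of CIE minus Control were 0.03, -0.08, -0.60 and -0.87 in that order. Their part in the results below was not tested. Markers of vesicles, microglia, endothelium, blood and liver had none, so that the vesicle label could not be checked here. In such bulk RNA, fewer vesicles of a cell type and less of a transcript per vesicle cannot be told apart.

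Cpt1a, Acaa2, Ppara and Pex11a had signals well above background on each of the 10 arrays, and none of the 4 passed the test of ethanol against room air. The mitochondrial genes Cpt1a and Acaa2 had higher means in CIE and Pex11a a lower one, while the Ppara means differed by 0.04. Limma with Benjamini-Hochberg adjustment over all probes called 0 of 43080 tested probes, or 0%, and 0 of these 4. At an unadjusted p under 0.05 it listed 921 probes, while the unmoderated model also called 0 and listed 1082. Both counts are a smaller share of the tested probes than the level of 0.05 itself. Over all tested probes the median log2 difference was -0.05 and 42.9% lay higher in CIE. Among the 43 named genes tested, 26 lay higher with a median of 0.08, and among the 4 genes 3 lay higher with a median of 0.13.

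Cpt1a, the gate of mitochondrial fatty acid entry, had Control levels of -1.27 (Control 1), -2.11 (Control 4), -1.82 (Control 6), -2.30 (Control 7) and -1.49 (Control 9). Its CIE levels were 0.94 (CIE 2), -1.32 (CIE 3), -1.64 (CIE 5), -2.39 (CIE 8) and -1.23 (CIE 10). CIE 2 stood above all other arrays, and of the remaining CIE arrays CIE 10 was just above the Control range, CIE 8 just below it, and CIE 3 and CIE 5 inside it. The Control mean was -1.80 ± 0.42 (SD, n = 5) and the CIE mean -1.13 ± 1.24 (SD, n = 5). The log2 difference was 0.67 with a standard error of 0.52, which is a 1.59-fold ratio with a 95% interval from 0.725 to 3.50 (limma adjusted p = 0.989). Without CIE 2 the difference was 0.15. With slide as a block it was 1.13 (limma adjusted p = 0.784). That value rests on slide 1 alone, where CIE 2 is 1 of only 3 CIE arrays.

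The signal behind the Cpt1a values was dim on most arrays. Mean intensity ran from 13.3 units on CIE 8 to 201 on CIE 2. A local background, itself between 12.5 and 14.5 units, had been subtracted. The Cpt1a levels, which are centred on each array, spanned a 10.1-fold range. The high value of CIE 2 was shared by its 10 spots, whose SD was 0.07 log2 units. The widest scatter of spots was on CIE 8, with an SD of 0.30. Of 100 spots in all, 93 were used after outlier flags, and on Control 6 the one flagged spot read 1.79 units where the others averaged 23.5. Scatter between spots is therefore small beside the SD of 0.94 between arrays. That SD exceeded the SD of 90.0% of tested probes, whose median was 0.49. Both the SD and the 10.1-fold range lean on CIE 2, at 0.94, where the other arrays ran from -2.39 to -1.23. The SD was not ranked without CIE 2.

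**Figure D1:**
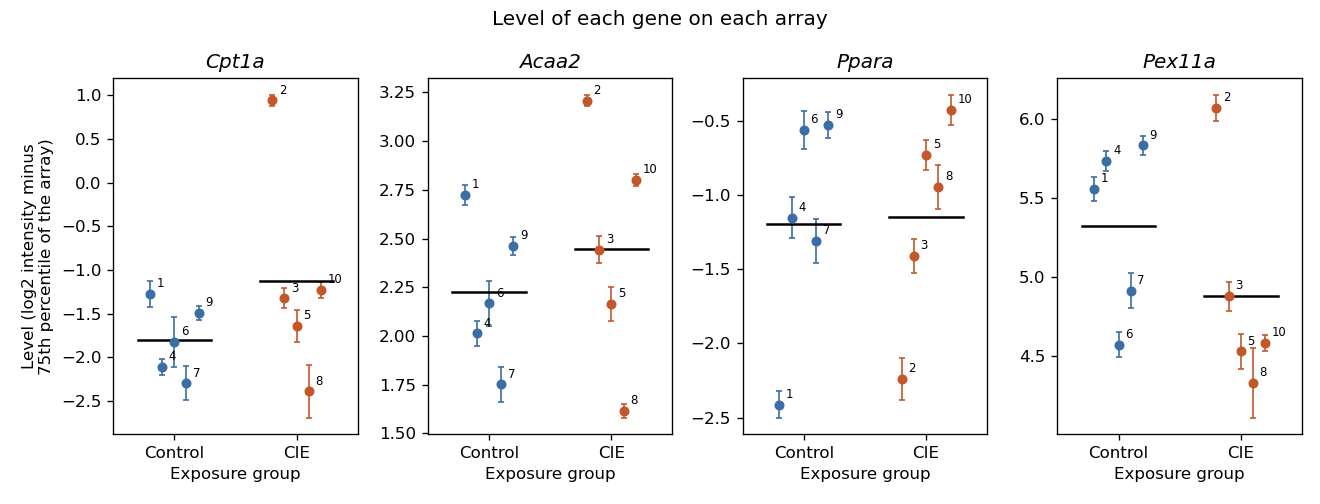
Levels of Cpt1a, Acaa2, Ppara and Pex11a in log2 units relative to the 75th percentile of each array (y axis, a separate scale per gene) in the 5 Control and 5 CIE arrays. Points are array means labelled with the sample number, vertical bars the SD over the spots of that array and horizontal lines the group means. The groups overlap in each gene, and CIE 2 is the highest array for Cpt1a (0.94), Acaa2 (3.21) and Pex11a (6.07).

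Acaa2, the thiolase that closes each round of mitochondrial beta-oxidation, had Control levels of 2.72 (Control 1), 2.01 (Control 4), 2.17 (Control 6), 1.75 (Control 7) and 2.46 (Control 9). Its CIE levels were 3.21 (CIE 2), 2.44 (CIE 3), 2.17 (CIE 5), 1.62 (CIE 8) and 2.80 (CIE 10). CIE 2 and CIE 10 lay above all Control arrays, CIE 8 below them, and CIE 3 and CIE 5 among them. Control averaged 2.22 ± 0.38 (SD, n = 5) and CIE 2.45 ± 0.61 (SD, n = 5). The log2 difference of 0.22 had a standard error of 0.31, a 1.17-fold ratio with a 95% interval from 0.728 to 1.87 (limma adjusted p = 0.989). It shrank to 0.03 without CIE 2 and grew to 0.43 without CIE 8 and to 0.38 with slide as a block. Intensities ran from 213 to 1059 units, at least 15.2 times the local background, and the median SD over spots was 0.06.

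Ppara, the receptor that senses fatty acids, had Control levels of -2.41 (Control 1), -1.15 (Control 4), -0.56 (Control 6), -1.31 (Control 7) and -0.53 (Control 9). In CIE they were -2.24 (CIE 2), -1.41 (CIE 3), -0.73 (CIE 5), -0.95 (CIE 8) and -0.42 (CIE 10). The groups covered nearly the same range, with 4 of the 5 CIE arrays inside that of Control and CIE 10 above it. Control 1 and CIE 2 were the lowest of their groups. Control averaged -1.19 ± 0.77 (SD, n = 5) and CIE -1.15 ± 0.71 (SD, n = 5). The log2 difference was 0.04 with a standard error of 0.42, a 1.03-fold ratio with a 95% interval from 0.543 to 1.96 (limma adjusted p = 0.994). Its sign was not settled, at -0.27 with slide as a block, -0.037 without Control 7 and CIE 8, -0.26 without Control 1 and 0.32 without CIE 2. The probe was dim, from 21.2 units on Control 1 to 133 on Control 9, with a local background between 13 and 15 units before subtraction.

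Pex11a, which acts in peroxisome division, was the one gene of the 4 whose mean was lower in CIE. Its Control levels were 5.56 (Control 1), 5.74 (Control 4), 4.57 (Control 6), 4.91 (Control 7) and 5.84 (Control 9). Its CIE levels were 6.07 (CIE 2), 4.88 (CIE 3), 4.53 (CIE 5), 4.33 (CIE 8) and 4.58 (CIE 10). In CIE, 4 arrays lay between 4.33 and 4.88, near the lower end of the Control range, and CIE 2 lay above the other 9 arrays. Control averaged 5.32 ± 0.55 (SD, n = 5) and CIE 4.88 ± 0.70 (SD, n = 5). The log2 difference was -0.45 with a standard error of 0.37, a 0.734-fold ratio with a 95% interval from 0.419 to 1.29 (limma adjusted p = 0.989). Without CIE 2 it was -0.74 with an unadjusted limma p of 0.0288, which again did not pass after adjustment, and with slide as a block it was -0.16. Intensities were between 1397 and 10967 units, at least 107 times the local background.

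**Figure D2:**
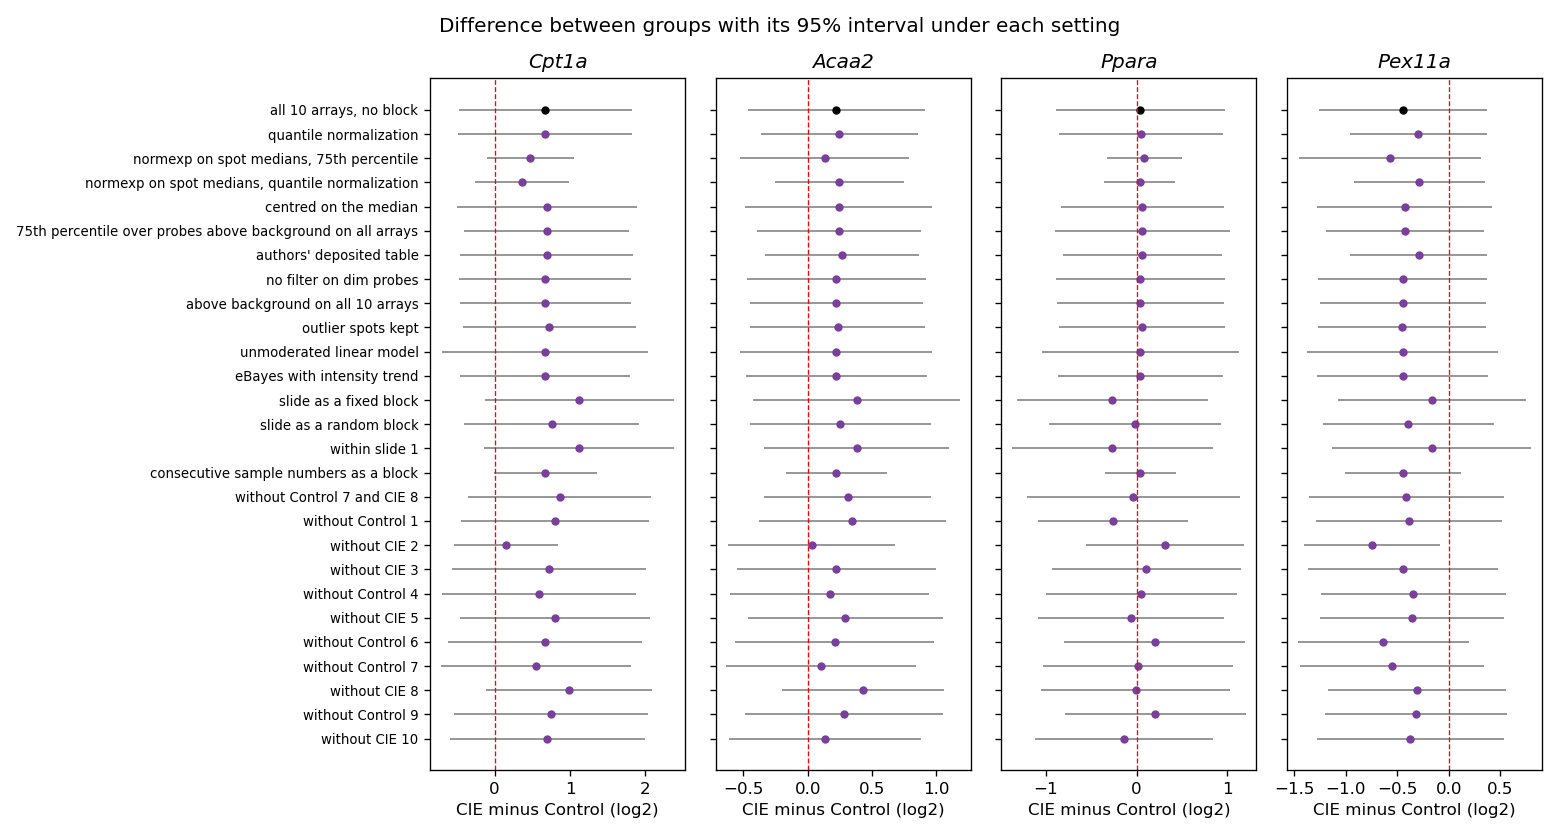
Log2 difference of CIE minus Control (x axis, a separate scale per gene) with its 95% interval for Cpt1a, Acaa2, Ppara and Pex11a under each setting (y axis). Black points use all 10 arrays with no block and the dashed line marks 0. Ppara lies on both sides of 0, and without CIE 2 the Cpt1a difference of 0.67 becomes 0.15 and the Pex11a difference of -0.45 becomes -0.74.

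Sample numbers taken as 1 and 2, 3 and 4, and so on up to 9 and 10 each join 1 Control with 1 CIE array. The differences inside these 5 pairs of consecutive numbers are given for each gene. Other neighbouring numbers can fall in the same group, as 2 and 3 do (both CIE). The labels do not say that the numbers pair the samples. Cpt1a was higher in the CIE array of 4 of 5 pairs, with CIE minus Control of 2.21, 0.79, 0.18, -0.09 and 0.26 in order of number. Acaa2 was higher in 3 of 5, with 0.48, 0.43, -0.0015, -0.14 and 0.34, where the third pair was all but equal. Pex11a was higher in 1 of 5, with 0.51, -0.86, -0.04, -0.59 and -1.25. Ppara was higher in 3 of 5, with 0.17, -0.26, -0.17, 0.36 and 0.10.

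With these pairs as a block, the standard error fell for each gene, from 0.52 to 0.30 for Cpt1a, 0.31 to 0.17 for Acaa2, 0.42 to 0.17 for Ppara and 0.37 to 0.25 for Pex11a, and no call was made. The limma adjusted p was 0.338 for Cpt1a, 0.552 for Acaa2 and 0.414 for Pex11a, and over all tested probes 0 passed while 6389 lay under the unadjusted level.

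**Figure D3:**
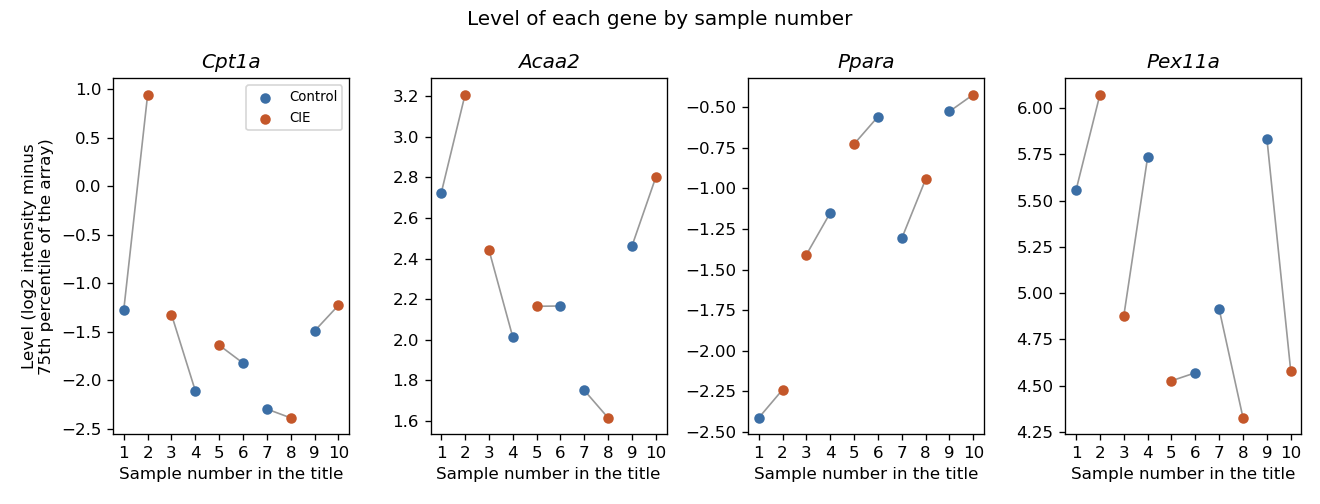
Levels of the 4 genes in log2 units relative to the 75th percentile of each array (y axis, a separate scale per gene) by the sample number in the title (x axis). Blue points are Control arrays, orange points CIE arrays, and grey lines join the pairs of consecutive numbers (1 with 2, up to 9 with 10). Ppara is lowest on numbers 1 and 2 (-2.41 and -2.24) and highest on number 10 (-0.42).

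Ppara followed the sample number over both groups. Pearson's r was 0.84 (permutation p = 0.00173, two-sided, n = 10, 0.0277 after adjustment over 16 relations) and Spearman's rho 0.87 (permutation p = 0.00208, adjusted 0.0333). Without Control 1 and CIE 10, r was 0.72, and within slide 1, with 8 arrays, it was 0.83. The permutation shuffled all 10 arrays freely. Ppara levels were close inside the pairs of consecutive numbers, with an SD of 0.16 within pairs against 0.73 for pair means. These p-values therefore treat near-equal neighbours as separate and may be too small. The labels leave unsaid what the number stands for, and both groups are spread over it. How many other probes follow the number was not counted, so the relation is not shown to be particular to Ppara. Gamt also ran from 0.35 on Control 1, its lowest array, to 1.11 on Control 9, its highest. Kcnn2 likewise ran from -1.73 on CIE 2 to -0.36 on Control 9. Hspb7, also lowest on CIE 2 (-4.87), was highest on Control 6 (-3.31). Gamt, Kcnn2 and Hspb7 are the genes named below as most like Ppara over the same arrays. Any course they share with Ppara follows from that choice and is no separate support. The 16 relations set each of the 4 genes against sample number, the 75th percentile, the share of probes well above background and the difference between the 3′ and the 5′ probe of mouse GAPDH, which reflects how intact the RNA is. They were chosen after the values were seen, and the other 15 did not pass adjustment. Among these, Pex11a against the log2 75th percentile had r = 0.63 (permutation p = 0.0495, adjusted 0.396) and rho = 0.71 (permutation p = 0.0271, adjusted 0.217), with r = 0.90 without Control 9 and CIE 10 and r = 0.77 within slide 1. The brightest array was Control 9 and the dimmest CIE 8, which were also the highest Control array and the lowest CIE array for Pex11a. These measures also went with exposure inside the pairs of consecutive numbers. The log2 75th percentile was lower in the CIE array of 5 of 5 pairs, with means of 6.48 ± 0.42 (SD, n = 5) in CIE and 6.84 ± 0.47 in Control, as was the share of probes above background (67.4% ± 5.0 and 71.5% ± 4.0). The GAPDH 3′ minus 5′ difference was higher in 5 of 5, with means of 0.90 ± 0.29 and 0.58 ± 0.32. The part of brightness and RNA integrity in the differences of the 4 genes was not tested.

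Cpt1a and Acaa2, which act at the first and the last step of the mitochondrial pathway, varied together over the 10 arrays. Pearson's r was 0.90 and Spearman's rho 0.98 (for each, permutation p = 1e-05, two-sided, n = 10, the smallest the resampling can give, and 6e-05 after adjustment over the 6 pairs of genes). Both were highest on CIE 2 and lowest on CIE 8 and Control 7, so the relation crosses the exposure groups. It did not rest on those extremes, with r = 0.95 over 8 arrays without CIE 2 and CIE 8, r = 0.97 without CIE 2 alone and r = 0.93 within slide 1 (permutation p = 0.00011, n = 8). Another background correction was run on spot medians, with flagged spots kept. It adds an offset of 50 units, more than the mean Cpt1a intensity on 7 of the 10 arrays. With it, r fell to 0.62 (permutation p = 0.0317) and did not pass adjustment (0.152). Which of these changes lowered r was not tested.

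The other 5 pairs of genes did not pass. Cpt1a and Pex11a had r = 0.55 (permutation p = 0.0663, adjusted 0.158) and Acaa2 and Pex11a r = 0.53 (permutation p = 0.114, adjusted 0.158), and without CIE 2 and CIE 8 these became -0.06 and 0.07. After each group was centred on its own mean, r between Cpt1a and Pex11a was 0.80 and passed (permutation p = 0.00598, adjusted 0.0179). That p is approximate, since values were shuffled across groups whose Cpt1a SD differed, at 0.42 in Control and 1.24 in CIE. CIE 2 is highest for both genes, and without it the uncentred r fell from 0.55 to 0.20. The centred r without CIE 2 was not computed, so how far the 0.80 rests on that array is not shown. Between Ppara and the other 3 genes r was negative, at -0.52 against Cpt1a (permutation p = 0.131), -0.41 against Acaa2 (permutation p = 0.235) and -0.55 against Pex11a (permutation p = 0.106). Without the 2 arrays farthest from the median of the first gene of each pair, these were -0.08, -0.10 and -0.11, so that they rest on those arrays. Without Control 9, r between Ppara and Pex11a was -0.79 and passed (permutation p = 0.0148, adjusted 0.0444).

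**Figure D4:**
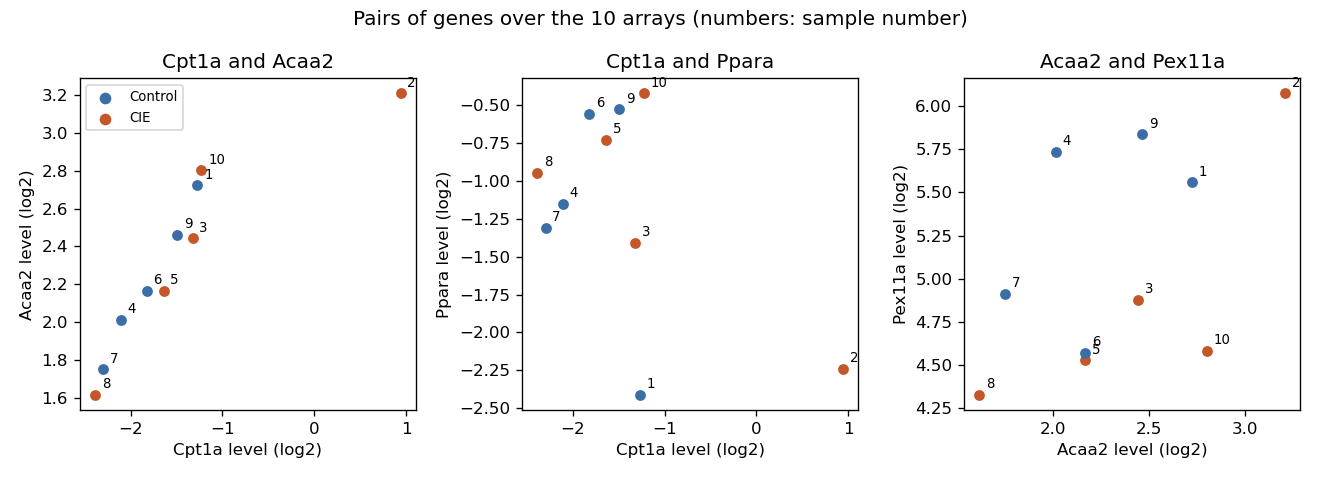
Levels of Acaa2 against Cpt1a, Ppara against Cpt1a and Pex11a against Acaa2 (both axes in log2 units relative to the 75th percentile of the array), 1 point per array labelled with the sample number, blue for Control and orange for CIE. Acaa2 follows Cpt1a from CIE 8 (-2.39 and 1.62) to CIE 2 (0.94 and 3.21), while Ppara shows no such order and is lowest on Control 1 and CIE 2.

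The genes most like each of the 4 were sought among the other 42 named and tested genes by Pearson's r over the 10 arrays, as a description. All arrays share their scaling, and many probes reach such values. Closest to Cpt1a were Cav2, which encodes caveolin-2 of membrane caveolae (r = 0.94), Prdx2, a peroxiredoxin that removes hydrogen peroxide (r = 0.90), and Acaa2 (r = 0.90). Of 42856 other probes, 261 were at least as close to Cpt1a as Cav2, and 719 as close as Acaa2 (1.68%). Like Cpt1a, Cav2 was highest on CIE 2 (0.80) and lowest on CIE 8 (-1.80).

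Closest to Acaa2 were Prdx2 (r = 0.98), Trp53rka, a p53-related protein kinase (r = 0.94), and Uhrf1bp1l (r = 0.93). Only 4 of the 42856 probes were at least as close to Acaa2 as Prdx2, and r was 0.96 without CIE 2. Closest to Ppara were Hspb7, a small heat shock protein (r = 0.89), Kcnn2, a calcium-activated potassium channel (r = 0.87), and Gamt, an enzyme of creatine synthesis (r = 0.82). Closest to Pex11a were Anxa8, an annexin (r = 0.84), Gsdmd, the pore-forming protein of pyroptosis (r = 0.70), and Duox1, an oxidase that makes hydrogen peroxide (r = 0.68). Within these short lists, the neighbours of the 4 genes did not overlap except between Cpt1a and Acaa2, which share Prdx2. The lists stop at the closest genes, and overlap further down was not tested. Separate neighbourhoods are therefore not shown. Gsdmd, listed for Pex11a, was highest on CIE 2 (-0.21) and lowest on CIE 8 (-3.51). Pex11a itself, Cpt1a and Acaa2 had the same highest and lowest arrays, as did Prdx2, Trp53rka and Uhrf1bp1l. These extremes therefore do not link Gsdmd to Cpt1a in particular.

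The rest of the pathway could be followed only in part, since most probes of the array are not paired with a gene in the files. Of 27 listed genes of mitochondrial fatty acid oxidation, Cpt1a and Acaa2 alone had a named probe. Of 23 genes of peroxisome assembly and division it was Pex11a, of 14 PPAR receptors and partners Ppara, and of 24 PPAR-alpha target genes Cpt1a, Acaa2 and Pex11a. The 20 listed genes of peroxisomal fatty acid oxidation and the 12 of ethanol and acetaldehyde metabolism had none. Of 26 genes of lipid synthesis and transport, Apoe, the lipoprotein component that carries lipids between brain cells, was tested, with a log2 difference of -0.08. In each of these lists 0 genes passed in either direction, against the 0% of all tested probes. The 3 named target genes of PPAR-alpha had log2 differences of 0.67, 0.22 and -0.45, which do not share a sign.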

How the data were processed

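RNA of 10 vesicle preparations, 5 Control and 5 CIE, was measured on single-colour Agilent arrays. The scanner files hold linear intensity values, from which, per the file headers, Agilent Feature Extraction (version 11.0.1.1) had subtracted the background. A log2 table that the authors deposited, normalized by a method not stated in the labels or its header, served as an alternative. Flags of spot quality were used as deposited. Spots with an outlier flag were left out, the log2 intensities of the other spots of a probe were averaged, and each array was centred on its 75th percentile over non-control probes. A probe counted as well above background where at least 0.5 of its spots (as a share) were. Probes well above background on at least 5 arrays, 43080 in number (70.8%), were compared by limma 3.58.1 (R 4.3.3) with Benjamini-Hochberg adjustment and a threshold of 0.05. Arrays limit the precision by their number. The median standard error was 0.30 log2 units.

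Probes were named through RefSeq identifiers in a table of assembly GRCm38.p6, and 46 of 50 matched. Correlations were tested by permutation with 100000 resamples (numpy 2.4.6). The script was tested on simulated data. For each gene the 3 named genes with the highest r were named. The genes and lists were chosen with earlier results of these data known. Alternatives covered scaling, background correction, filters, slide, consecutive numbers and single arrays. The files hold no spot mean, so normexp was run on spot medians, and there the spots with an outlier flag were kept. Acaa2 sequence is not reported here.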

Additional observations from a re-analysis of the deposited data

How the results depend on the processing

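Each group difference was recomputed under 26 other settings, of which the normexp ones were chosen after seeing the data because the planned spot means were absent. In all of them 0 probes passed, with 402 to 6389 under the unadjusted level. Cpt1a kept its sign in all 26, from 0.15 to 1.13, as did Acaa2, from 0.03 to 0.43, and Pex11a, from -0.74 to -0.16, and none of the 3 passed, with a lowest limma adjusted p of 0.338. Not all of the 26 could move a difference, so this count overstates how far the signs were tried. Changes of filter, of variance model and the block of consecutive numbers left Cpt1a at 0.67. Slide as a fixed block repeats the estimate within slide 1. Ppara turned negative in 8 of 26, at -0.27 with slide as a fixed block and within slide 1, -0.017 with slide as a random block and -0.037 without Control 7 and CIE 8, and leaving out single arrays gave -0.26 to 0.32. The correlation of Cpt1a with Acaa2 lost its call under normexp (r = 0.62). That of Cpt1a with Pex11a gained one within groups (r = 0.80), by a permutation p that is approximate there. Without single arrays, r was 0.89 to 0.97 for Cpt1a with Acaa2, 0.20 to 0.70 for Cpt1a with Pex11a, and -0.79 to -0.36 for Ppara with Pex11a. No cause of these shifts was tested. The 2 groups share no sample number in the labels. The fit with consecutive numbers as a block follows their order alone, changed no call and moved the count under the unadjusted level from 921 to 6389. With 5 arrays a group, the 95% interval spans 0.725-fold to 3.50-fold for Cpt1a. Cpt1a and Ppara were dim, though above background.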
